A study of Mus musculus with 4 samples.

Results

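Cerebellins, delta glutamate receptors and neurexins form a bridge across the synapses of the cerebellar cortex, and 7 of their genes were described here: the cerebellin genes Cbln1, Cbln2, Cbln3 and Cbln4, the delta receptor gene Grid1, and the neurexin genes Nrxn2 and Nrxn3. They were taken by gene symbol from the array table, where each had 1 probe set, and they are 7 of 19938 named genes. Expression was measured on 4 Affymetrix Mouse Gene 1.0 ST arrays, each of total RNA from 1 sample. The control was the whole cerebellum of a wild-type mouse at 2 months of age. The 3 tumours were medulloblastomas, of which 2 arose in the Math1-Cre;SmoM2 genotype (at 1 month and at 2 months) and 1 in the PtchLacZ/+ genotype (at 5 months). All samples share a mixed background of the C57BL/6 and C3H strains. In the Math1-Cre;SmoM2 model an active form of the Hedgehog transducer Smoothened is switched on in the lineage of Math1 (Atoh1), which includes the granule neuron progenitors, and the PtchLacZ/+ mouse carries a lacZ allele of the Hedgehog receptor gene Ptch1. How many animals gave a sample is not in the labels, so the p-values rest on the spread among these arrays. Part of that spread may be technical, and among the tumours it also holds differences of genotype and age.

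Granule neurons secrete cerebellins from their parallel fibres. Cerebellins are relatives of the complement protein C1q and assemble through their C1q domains. On the presynaptic side Cbln1 binds neurexins that carry an alternatively spliced insert. On the postsynaptic side it binds the delta receptors of Purkinje cells. These receptors belong to the ionotropic glutamate receptor family by sequence but act mainly as adhesion receptors. This bridge is needed to form and keep parallel fibre synapses. The other cerebellin genes are described here as family members, and no binding was measured.

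All levels are on the authors' log2 scale, on which 1 unit is a doubling, and levels of different genes were not ranked against each other, since each probe set has its own response. No detection calls were used, and a level below the first quartile of its array's named genes (5.09 to 5.17) cannot be taken as above background. The labelled tissues were checked against marker lists. Markers of mature granule neurons had a mean log2 level of 11.37 in the cerebellum, 7.86 in the 1-month SmoM2 tumour, 7.43 in the 2-month SmoM2 tumour and 6.66 in the PtchLacZ/+ tumour. Markers of granule neuron progenitors stood at 7.29 in the cerebellum, against 11.34, 10.97 and 11.56 in the same 3 tumours.

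Cerebellins and neurexins were first compared between the tumours and the cerebellum. Cbln1, Nrxn2 and Nrxn3 fell, Cbln4 rose, and Cbln2, Cbln3 and Grid1 did not pass the test. The test was limma over all 19938 genes, with p-values adjusted after Benjamini and Hochberg and called under 0.05. By it 4 of 7 genes passed, 1 higher and 3 lower. Over all genes, 16.0% passed, 6.70% as higher and 9.30% as lower. The median difference was -1.10 over the 7 genes and 0.04 over all genes. In 5 of 7 genes all 3 tumours lay below the cerebellum, as in 32.0% of all genes, and in the other two all 3 lay above it, as in 38.1% of all genes. The error of the fit rests on the 3 tumours alone, which differ in genotype and age, under the assumption that cerebella vary as much as tumours do. In whole tissue, fewer cells of a type and less RNA per cell cannot be told apart.

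**Figure D1:**
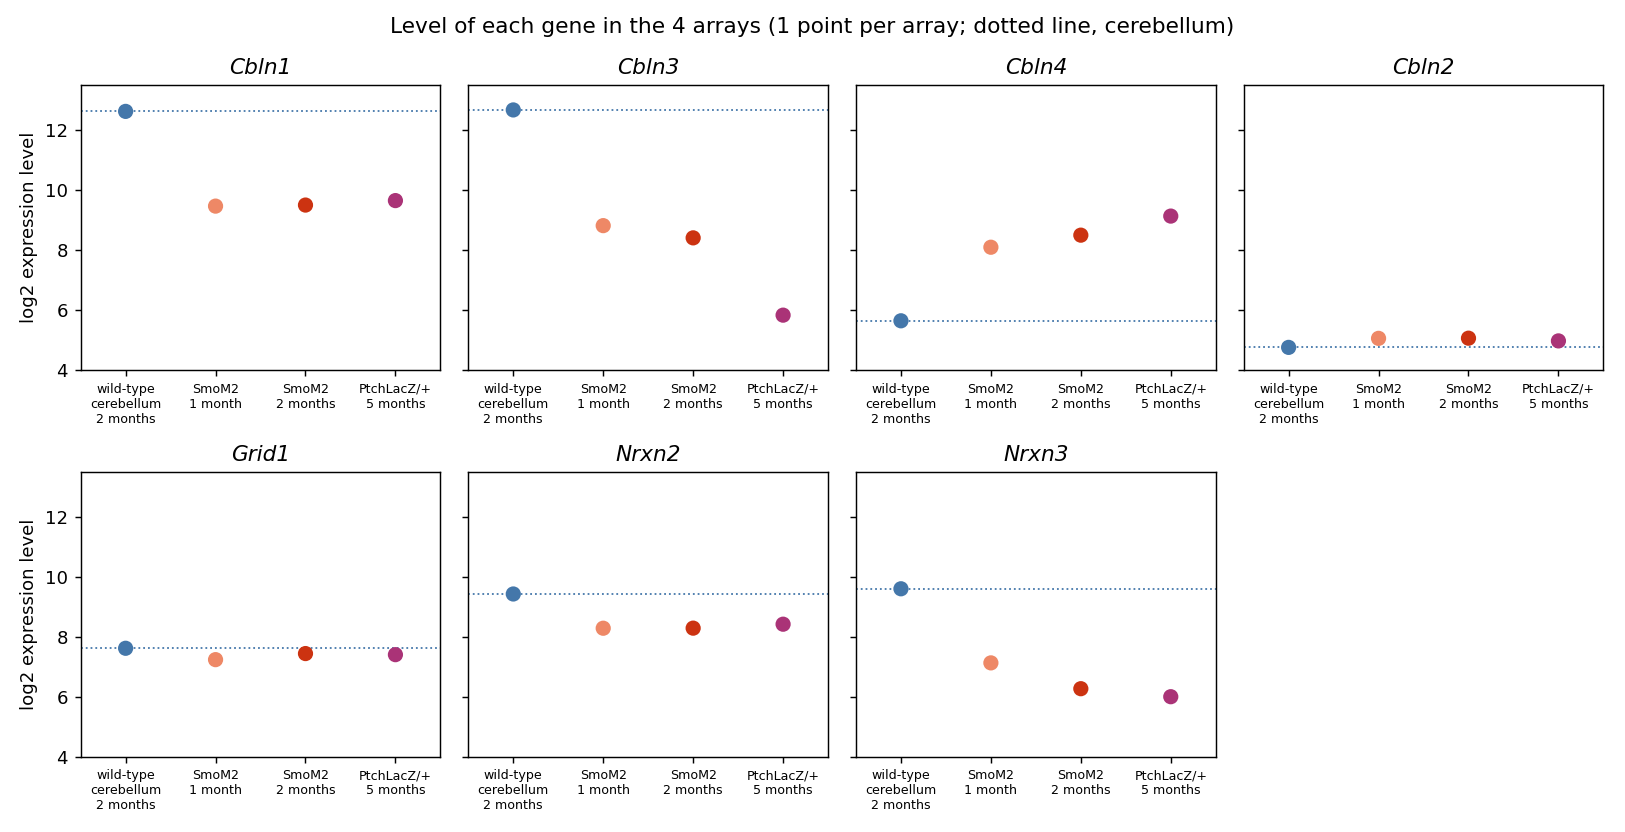
Log2 expression level (vertical axis) of each of the 7 genes in the 4 arrays (horizontal axis), 1 point per array, with a dotted line at the cerebellum. Cbln3 spans 6.84 log2 units between the cerebellum and the PtchLacZ/+ tumour, Cbln4 is higher in all 3 tumours, and Grid1 spans 0.38.

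Cbln1, the founding cerebellin and the main form secreted by granule neurons, was at 12.62 in the cerebellum, 9.46 in the 1-month SmoM2 tumour, 9.50 in the 2-month SmoM2 tumour and 9.64 in the PtchLacZ/+ tumour. The tumours lay within 0.18 of each other, far below the cerebellum. Their mean was 9.53 ± 0.10 (SD, n = 3), and Cbln1 fell by 3.08 ± 0.18 (limma standard error, which follows ± from here on unless SD is written), an 8.48-fold lower level (adjusted p = 0.00335). The 95% confidence interval of the difference ran from -3.54 to -2.63. In the order of the arrays the cerebellum came first, by a gap of 2.97. The 3 tumours followed with gaps of 0.15 and 0.04, both under 0.25, the median gap between the SmoM2 tumours over all genes, so their order is not resolved. At 9.46 to 9.64 the tumours lay above the upper quartile of the named genes in their arrays (8.39 to 8.47).

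Cbln3, a cerebellin that is made mainly by cerebellar granule neurons and is secreted when assembled with Cbln1, was at 12.67 in the cerebellum, 8.81 in the 1-month SmoM2 tumour, 8.40 in the 2-month SmoM2 tumour and 5.83 in the PtchLacZ/+ tumour. All 3 tumours lay below the cerebellum, and the PtchLacZ/+ tumour was the lowest by 2.58. The mean over the tumours was 7.68 ± 1.62 (SD, n = 3) and the difference from the cerebellum was -4.99 ± 1.19. It missed the threshold (adjusted p = 0.0530, 95% confidence interval -8.06 to -1.91), although only 4 of the 19938 genes had a lower difference. Over 8 alternative settings its adjusted p ran from 0.0125 to 0.0537 and it passed in 7, among them the leaving out of any tumour. Without the PtchLacZ/+ tumour the difference was -4.06 (adjusted p = 0.0125).

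Cbln4, a cerebellin best known from neurons outside the cerebellar cortex, went the other way. Its level was 5.64 in the cerebellum, 8.09 in the 1-month SmoM2 tumour, 8.49 in the 2-month SmoM2 tumour and 9.13 in the PtchLacZ/+ tumour. The cerebellum level lay above the first quartile of the named genes in its array (5.09) but below their median (6.76). The rise is thus counted from a low level. Every tumour lay at least 2.45 above the cerebellum, which is a single array. All 3 tumours lay above it in 38.1% of all genes. The tumour mean was 8.57 ± 0.52 (SD, n = 3), and Cbln4 rose by 2.93 ± 0.42, a 7.63-fold higher level (adjusted p = 0.0136, 95% confidence interval 1.86 to 4.003). Among all genes its difference stood at the 99.1 percentile. The gaps among the tumours, 0.40 and 0.64, were above the median gap of the SmoM2 tumours over all genes (0.25) and under the 95th percentile of that gap (0.91).

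Cbln3 and Cbln4 differed from the cerebellum in opposite directions in all 3 tumours, so the stretches before their transcription starts are shown, as a view of the regulatory sequence of each gene. Both come from the RefSeq promoter table (GRCm38.p6), in which 3 of the 7 genes (Cbln3, Cbln4 and Nrxn3) were matched, and both lie on the minus strand. They are the 250 bases that end just before the start, at chr14:55884257-55884506 for Cbln3 and chr2:172043467-172043716 for Cbln4, written 5′ to 3′. The letters in capitals are the matches, on either strand, to 5 motifs: the E-box CANNTG, which proneural factors such as Atoh1 bind, TTGGC, which nuclear factor I proteins bind, the GC box GGGCGG, the CCAAT box and the Gli motif GACCACCCA.
Cbln3: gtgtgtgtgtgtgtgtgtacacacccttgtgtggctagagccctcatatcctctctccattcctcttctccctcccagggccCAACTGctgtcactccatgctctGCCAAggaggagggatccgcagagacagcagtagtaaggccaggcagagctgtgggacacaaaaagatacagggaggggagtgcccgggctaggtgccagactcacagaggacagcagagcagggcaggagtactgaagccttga
Cbln4: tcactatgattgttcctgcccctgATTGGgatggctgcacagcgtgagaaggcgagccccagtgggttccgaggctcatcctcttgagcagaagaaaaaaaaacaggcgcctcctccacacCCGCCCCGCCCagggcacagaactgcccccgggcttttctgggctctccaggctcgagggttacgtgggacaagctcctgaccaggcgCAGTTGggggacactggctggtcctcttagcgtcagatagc
The Cbln3 stretch holds 1 E-box, 168 to 163 bases before the start, and 1 TTGGC match on the opposite strand. The Cbln4 stretch holds 1 E-box, 41 to 36 bases before the start, a CCAAT box on the opposite strand, and 2 GC boxes on the opposite strand that overlap by 1 base. Over the 32851 windows of the table an E-box is present in 66.2%, TTGGC in 41.5%, a GC box in 32.7%, CCAAT in 33.9% and the Gli motif, which neither stretch holds, in 0.225%. The Cbln3 stretch has 2 CpG pairs and the Cbln4 stretch 11, against a median of 6 over all windows. A match describes the letters and is not evidence of binding.

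Cbln2, a cerebellin known mainly from the forebrain and brain stem, was at 4.75 in the cerebellum, 5.05 in the 1-month SmoM2 tumour, 5.06 in the 2-month SmoM2 tumour and 4.97 in the PtchLacZ/+ tumour. All 4 values lay below the first quartile of the named genes in their arrays, so Cbln2 is not shown to be above background in any sample. The difference of 0.27 ± 0.17 did not pass (adjusted p = 0.369), and its 95% confidence interval ran from -0.15 to 0.70. It is the one cerebellin of the 4 for which these arrays give no usable level.

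Grid1 encodes GluD1, the delta receptor that is found widely outside Purkinje cells, including in interneurons. Its level was 7.61 in the cerebellum, 7.24 in the 1-month SmoM2 tumour, 7.44 in the 2-month SmoM2 tumour and 7.40 in the PtchLacZ/+ tumour. The 4 arrays spanned 0.38, and no gap between neighbours in their order was wider than that between the SmoM2 tumours (0.20). Grid1 differed by -0.26 ± 0.18 (adjusted p = 0.445), with a 95% confidence interval of -0.72 to 0.21, so a fall as large as that of Nrxn2 lies outside the interval. It remained uncalled under all 8 alternatives (adjusted p = 0.249 to 0.732).

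Nrxn2 and Nrxn3 encode presynaptic adhesion molecules, each made in long and short forms from separate promoters and in many splice forms, which a single probe set does not separate. Nrxn2 was at 9.42 in the cerebellum, 8.282 in the 1-month SmoM2 tumour, 8.285 in the 2-month SmoM2 tumour and 8.42 in the PtchLacZ/+ tumour. The tumours lay close together and about a unit below the cerebellum. Nrxn2 fell by 1.10 ± 0.17, a 2.14-fold lower level (adjusted p = 0.0177). It passed in 6 of 8 alternatives. It did not pass when the 1-month SmoM2 tumour was left out (-1.07, adjusted p = 0.0563) or when the PtchLacZ/+ tumour was (-1.14, adjusted p = 0.0703).

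Nrxn3 was at 9.60 in the cerebellum, 7.13 in the 1-month SmoM2 tumour, 6.27 in the 2-month SmoM2 tumour and 6.00 in the PtchLacZ/+ tumour. The cerebellum stood 2.47 above the nearest tumour. The mean over the tumours was 6.46 ± 0.59 (SD, n = 3), and Nrxn3 fell by 3.13 ± 0.46, an 8.77-fold lower level (adjusted p = 0.0149, 95% confidence interval -4.32 to -1.95). The 1-month tumour was above the 2-month tumour by 0.86, a wider gap than that of the 2-month tumour to the PtchLacZ/+ tumour (0.27). RefSeq gives 3 starts of Nrxn3 on chromosome 12. Their windows of 250 bases hold 2, 5 and 12 CpG pairs and 0, 1 and 5 E-boxes, in the order of the chromosome, and the array does not tell which start was in use.

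**Figure D2:**
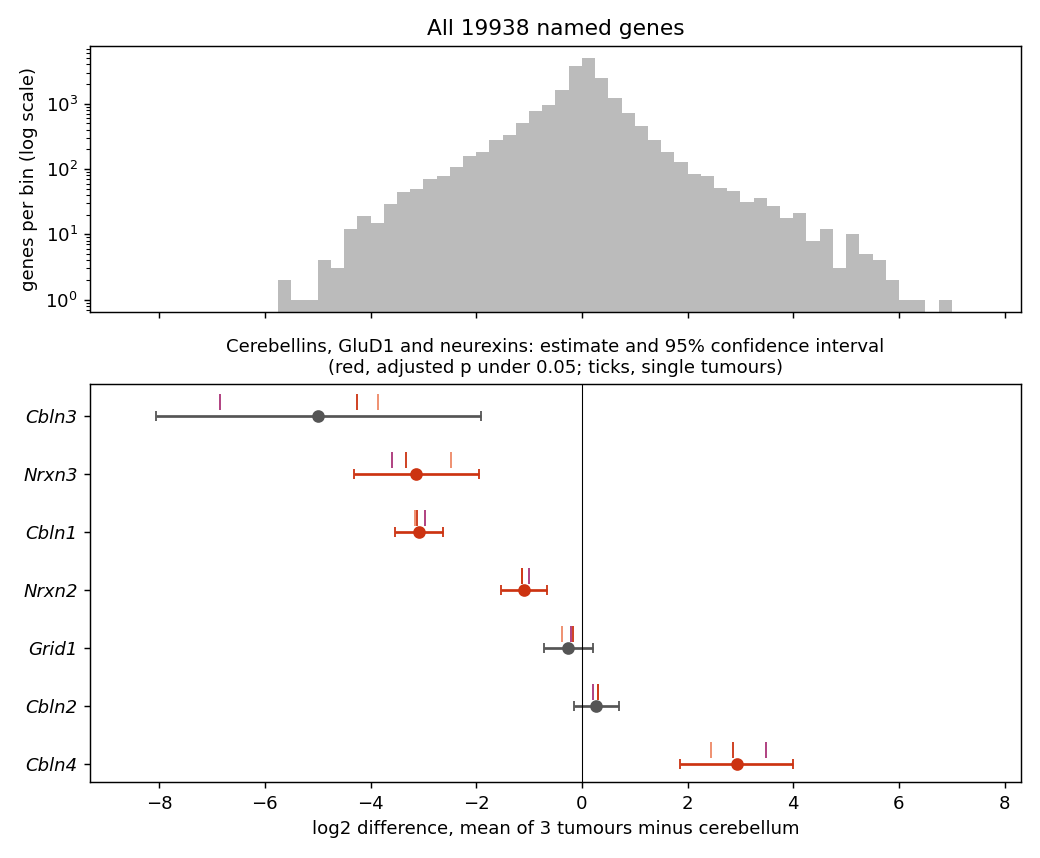
Top, number of named genes (vertical axis, log scale) by log2 difference between the mean of the 3 tumours and the cerebellum (horizontal axis). Bottom, the same difference for the 7 genes, with limma estimates (points, red where the adjusted p is under 0.05), 95% confidence intervals (bars) and single tumours (ticks, coloured as in the plot of levels by array); Cbln3 has the lowest estimate, -4.99, and the widest interval.

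The tumour models were compared next, with the PtchLacZ/+ tumour set against the 2 SmoM2 tumours. Genotype and age cannot be told apart here, and the lone tumour was assumed to vary like the SmoM2 pair. Cbln3 differed by -2.78 ± 0.30, lower in the PtchLacZ/+ tumour (95% confidence interval -3.56 to -1.996), and only 4 of 19938 genes had a lower difference. Its limma p was 0.000325 before adjustment over all genes and the adjusted p = 0.9998, so it did not pass. Cbln4 was higher by 0.84 ± 0.30 (95% confidence interval 0.06 to 1.62, the same adjusted p), and Nrxn3 differed by -0.70 ± 0.43. Cbln1, Cbln2, Grid1 and Nrxn2 differed by 0.17, -0.09, 0.06 and 0.13, each smaller than its standard error. None of the 7 genes passed, against 0% of all genes by limma after adjustment and 1.40% at an unadjusted p under 0.05 (280 genes, 2 of the 7 among them). After quantile normalization Cbln3 passed (-2.88, adjusted p = 4.65e-05) as 1 of 14 genes. With a trended prior variance it did not (adjusted p = 0.268).

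Cbln3 and Cbln1 thus stood apart in the PtchLacZ/+ tumour more than in the SmoM2 tumours. The change of Cbln3 from the cerebellum minus that of Cbln1 was -0.70 in the 1-month SmoM2 tumour, -1.14 in the 2-month SmoM2 tumour and -3.87 in the PtchLacZ/+ tumour. These are differences of differences in single arrays, with no test.

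Markers of the cells that make and receive cerebellins were read beside these genes. Over all genes 9.30% fell and 6.70% rose. Of 10 mature granule neuron markers 9 fell, with median differences of -3.39 (SmoM2, 1 month), -4.04 (SmoM2, 2 months) and -4.25 (PtchLacZ/+). Gabra6, a GABA receptor gene restricted to mature granule neurons, had log2 levels of 12.24 (cerebellum), 7.97 and 7.40 (SmoM2, 1 and 2 months) and 4.64 (PtchLacZ/+). The last lay below the first quartile of its array, and Gabra6 did not pass (adjusted p = 0.0509). Of 9 measured Purkinje cell markers 7 fell, with medians of -3.28, -3.63 and -4.79 in the same order, and their mean log2 level was 10.67 in the cerebellum and 7.26, 7.01 and 5.44 in the tumours. Calb1 (calbindin), a Purkinje cell marker, had log2 levels of 11.92 (cerebellum), 8.05 and 7.96 (SmoM2, 1 and 2 months) and 4.45 (PtchLacZ/+), the last below the first quartile of its array. Calb1 did not pass in limma either (adjusted p = 0.0905). Gabra6 and Calb1 are the extremes of their lists in PtchLacZ/+ minus SmoM2. That difference ran from -3.05 (Gabra6) to 0.32 (Fat2) over the granule neuron markers. Over the Purkinje cell markers it ran from -3.56 (Calb1) to -0.25 (Itpka), the ends named after their values were seen. Of 8 measured inhibitory interneuron markers 7 fell (medians -2.30, -2.55 and -2.51), of 8 astrocyte and Bergmann glia markers 5 fell (medians -1.22, -1.50 and -1.87), and 6 of 8 progenitor markers and all 5 measured proliferation markers rose. The part of these cell types in the levels of the 7 genes was not tested.

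**Figure D3:**
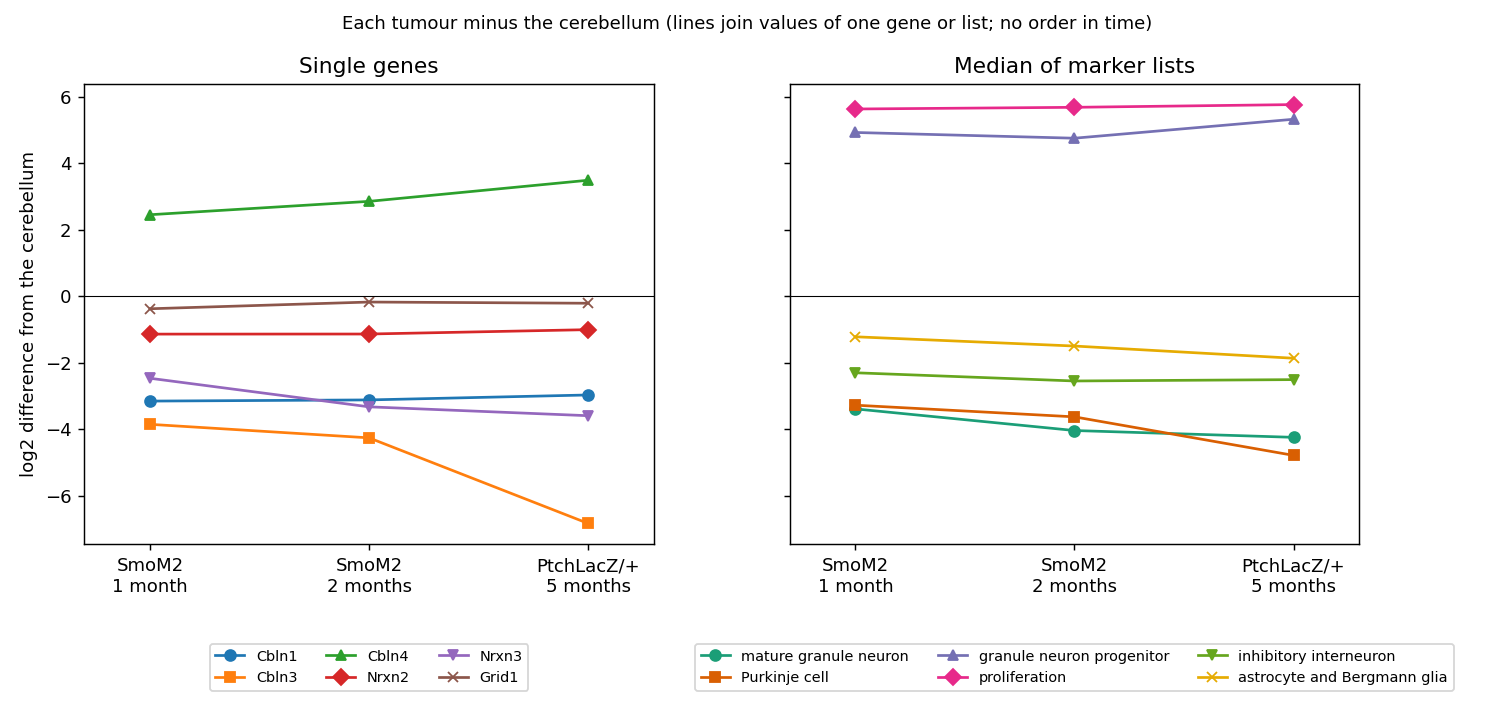
Log2 difference of each tumour (horizontal axis) from the cerebellum (vertical axis) for 6 of the genes (left) and for the median of 6 marker lists (right); lines join the values of one gene or list. The PtchLacZ/+ tumour has the lowest Cbln3 (-6.84) and the lowest Purkinje cell median (-4.79), while Cbln1 differs by -2.97 to -3.16 in all 3 tumours.

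The genes with the most similar pattern were found by centring each gene on its own mean over the 4 arrays and taking the root mean square difference between 2 genes. This is a description over 4 arrays. Nearest to Cbln3 were Car8, which encodes a carbonic anhydrase-related protein abundant in Purkinje cells, at 0.17, and Gabra6 at 0.28, and only 6 genes lay within 0.5 of it. Car8 was at 12.64 in the cerebellum, 9.24 in the 1-month SmoM2 tumour, 8.68 in the 2-month SmoM2 tumour and 6.12 in the PtchLacZ/+ tumour. Its difference from the cerebellum did not pass in limma (adjusted p = 0.0692). Nearest to Cbln1 were Ablim3 (0.06) and Ppp4r4 (0.07), with 428 genes within 0.5. Cbln4 was nearest to the condensin subunit gene Ncapd2 (0.12) and the DNA repair gene Fancd2 (0.13), with 268 genes within 0.5. Ncapd2 was at 7.84 in the cerebellum and 10.23, 10.82 and 11.13 in the 3 tumours. Nearest to Nrxn3 were the sorting receptor gene Sorl1 (0.04) and Cdr1os (0.08), with 326 genes within 0.5. Nearest to Nrxn2 were Nanp and Fbxo33 (both 0.02), but 8522 genes lay within 0.5 of Nrxn2, so this likeness sets little apart. Grid1 was nearest to Cyb5d1 and Bmp8a, and Cbln2 to Rhbdl3 and Cilp2, but 16228 and 16158 genes lay within 0.5 of them, so these likenesses set nothing apart. Among the 7 genes the closest pair that changed was Cbln1 and Nrxn3 (0.47).

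The SmoM2 tumours at 1 and 2 months were compared without a test, since there was 1 array of each. No gene of the 7 differed by at least 1 log2 unit, against 3.71% of all genes. Nrxn3 was higher at 1 month by 0.86, at the 94.0 percentile of the gaps of all genes. Cbln3 was higher at 1 month by 0.41, and Cbln4 was lower by 0.40, at the 70.4 and 69.9 percentiles. Grid1 was lower by 0.20, and Cbln1, Cbln2 and Nrxn2 differed by 0.04 or less. Beside these, mature granule neuron markers had a mean log2 level of 7.86 at 1 month and 7.43 at 2 months, and their part in the Nrxn3 difference was not tested.

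Genes that act with the bridge were counted in 4 lists, of which 46 genes were measured. Of these 3 rose, 14 fell and 29 did not pass in tumour against cerebellum, beside 6.70% and 9.30% of all genes, and the median difference was -0.61. The list of other neurexin ligands held 18 genes, of which 6 fell and 1 rose (median -0.34). The calsyntenin genes Clstn3 and Clstn2, whose products bind neurexins from the postsynaptic membrane, fell (-3.68 ± 0.27 and -3.08 ± 0.21, adjusted p = 0.00423 and 0.00396). Clstn3 had log2 levels of 11.28 (cerebellum), 7.89 (SmoM2, 1 month), 7.62 (SmoM2, 2 months) and 7.29 (PtchLacZ/+). Lrrtm3, a leucine-rich repeat ligand of neurexins, fell by 2.28 ± 0.19 (adjusted p = 0.00490). The others that fell, named after their values were seen, were Car10 (-2.14), Car11 (-2.07) and Clstn1 (-0.72), carbonic anhydrase-related ligands and another calsyntenin.

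The one neurexin ligand that rose was Nxph3, a secreted neurexophilin, at 6.14 in the cerebellum and 8.08, 8.70 and 8.83 in the tumours in the same order (2.39 ± 0.33, adjusted p = 0.0131). Dag1 (dystroglycan) and Nxph4 differed by 0.46 and 0.37 and did not pass. Neuroligins, the classical neurexin partners, were not called: Nlgn1, Nlgn2 and Nlgn3 differed by -0.07, -0.28 and -0.30 (adjusted p = 0.422 to 0.958; named after their values were seen).

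C1q-like proteins are relatives of the cerebellins that bind adhesion receptors of the Adgrb family. Of 7 genes 1 rose and none fell (median 0.21), beside 6.70% and 9.30% of all genes. C1ql1, the climbing fibre ligand of Adgrb3 and also a gene of oligodendrocyte precursors, was at 6.67 in the cerebellum and 10.69, 10.38 and 10.37 in the tumours in the same order (3.82 ± 0.21, adjusted p = 0.00335). The precursor marker Pdgfra rose as well, by 3.38 ± 0.27 (adjusted p = 0.00453). The other precursor markers differed by less (named after their values were seen). Cspg4 and Olig1 rose by 1.65 and 1.49, and Olig2 and Sox10 differed by 2.00 and 0.73 without passing. The part of oligodendrocyte precursors in the C1ql1 level was not tested. C1ql2 and C1ql3 differed by 1.04 and 0.40, and the receptor genes Adgrb3 and Adgrb1 by -0.96 and -0.92 (adjusted p = 0.0845 and 0.0801). When the 2-month SmoM2 tumour was left out, 4 genes of this list passed, 2 higher and 2 lower. Calls rose over all 19938 genes as well, from 3191 to 6010.

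Of 9 measured genes whose products act at the presynaptic tail of neurexins or in release beside it, 2 fell and none rose (median -0.96). The shares over all genes were 9.30% and 6.70%. The scaffold genes Lin7a and Lin7b fell (-2.65 ± 0.32 and -0.96 ± 0.17, adjusted p = 0.00980 and 0.0238). Cadps2, a vesicle priming gene of granule neurons, differed by -2.64 and the adaptor gene Apba1 by -1.55 (adjusted p = 0.0760 and 0.0713), and Apba2 and the kinase-like scaffold gene Cask by 0.87 and 0.65 without passing. When the 2-month SmoM2 tumour was left out, 7 of the 9 passed. Over all 19938 genes 6010 then passed, against 3191 with all 3 tumours.

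Of 12 measured genes of the postsynaptic scaffold, 6 fell and 1 rose (median -1.14), beside 9.30% and 6.70% of all genes. The scaffold genes Dlg2, Shank1 and Homer3, the last enriched in Purkinje cells, fell (-3.24 ± 0.35, -2.44 ± 0.27 and -1.95 ± 0.27, adjusted p = 0.00757, 0.00757 and 0.0127). Grip1, an adaptor of AMPA receptors, rose by 1.39 ± 0.20 (adjusted p = 0.0133). Grid2ip, which encodes the delta receptor scaffold delphilin, was at 7.57 in the cerebellum and 8.08, 7.23 and 8.0 in the tumours, on both sides of the cerebellum (0.20 ± 0.38, adjusted p = 0.807). The count of 7 was 4, all lower, without the PtchLacZ/+ tumour, where calls over all 19938 genes went from 3191 to 1565.

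**Figure D4:**
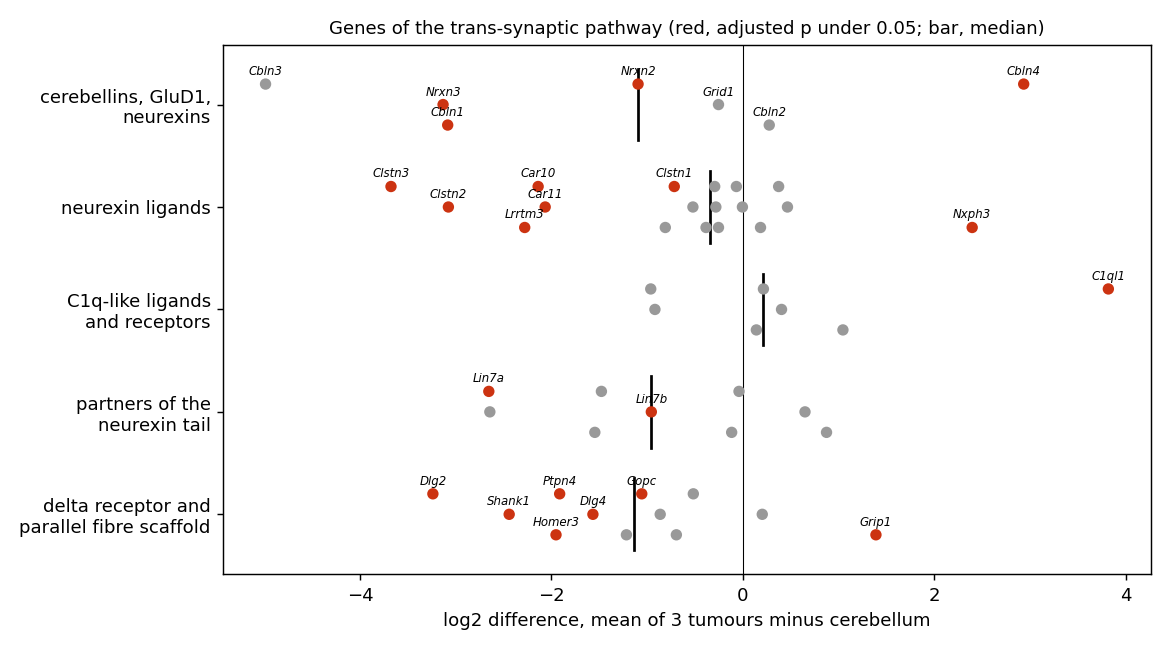
Log2 difference between the mean of the 3 tumours and the cerebellum (horizontal axis) for the 7 genes and 4 lists of partner genes (rows), 1 point per gene, red where the adjusted p is under 0.05, with a bar at the median of each row. Points are shifted up and down only to part them; Cbln4, Nxph3, C1ql1 and Grip1 are the red points to the right of 0.

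None of the 46 partner genes passed in limma between the PtchLacZ/+ and the SmoM2 tumours, against 0% of all genes, and 0 of them had an unadjusted p under 0.05, against 1.40% of all genes. Between the SmoM2 tumours 5 of them differed by at least 1 log2 unit, against 3.71% of all genes, and all 5 were higher at 1 month (named after their values were seen). They were the AMPA receptor gene Gria2 by 2.49, the vesicle priming genes Cadps and Cadps2 by 1.54 and 1.20, Nlgn1 by 1.27 and Apba1 by 1.04.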

How the data were processed

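The authors deposited 1 table of log2 expression values for 35557 probe sets and 4 arrays. Per the submitters' processing notes it comes from Affymetrix Expression Console. The sources used here do not give how probe sets were summarised and normalized, and the unit follows from the range of the values (2.71 to 14.9). Values were used as deposited, with no filter. Of the probe sets, 21789 had a single gene symbol in the platform annotation, 1621 several and 12147 none. Symbols were updated through Entrez identifiers (21698 matched, RefSeq GRCm38.p6), and the probe set with the highest mean stood for a gene, a choice that concerned 999 genes and none of the 7. limma 3.58.1 in R 4.3.3 fitted the 3 tumours against the cerebellum (2 residual degrees of freedom) and PtchLacZ/+ against SmoM2 (1), tested on simulated data first. Members, partner and marker lists and motifs were chosen with earlier results of these data known. Partner genes were named by rule, up to 3 per list and direction, and 2 genes per member by likeness; others are marked. Of 50 entries in the 4 partner lists 46 were measured; the 2 of another list, other family members, were not analysed here. Groups came from the genotype labels. The number of arrays limits the precision.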

Additional observations from a re-analysis of the deposited data

How the results depend on the processing

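The tumour against cerebellum comparison was recomputed under 8 alternatives. The 3 that leave out a tumour gave 1565 (without the PtchLacZ/+ tumour) to 6010 (without the 2-month SmoM2 tumour) called genes, against 3191 with all 3 tumours. They gave 1 to 4 calls among the C1q-like genes and 2 to 7 among the presynaptic partners, the higher without the 2-month SmoM2 tumour, and 4 to 9 among the postsynaptic scaffold genes, the lowest without the PtchLacZ/+ tumour. Of the 7 genes 4 or 5 were called under every alternative run. Cbln3 passed with arrays centred on the median (-4.99, adjusted p = 0.0498), after quantile normalization (-5.29, 0.0348), with a trended prior variance (0.0323) and with low genes left out (0.0371). In PtchLacZ/+ against SmoM2, quantile normalization gave 14 called genes, with 1 of the 7, and a trended prior variance gave 1, where the values as deposited gave 0. Leaving out a SmoM2 tumour there leaves no residual degrees of freedom, and Cbln3 then differed by -2.98 or -2.58 with no test. In tumour against cerebellum no direction of the 7 genes reversed under these alternatives. Small differences among tumours that had no call changed sign: PtchLacZ/+ minus SmoM2 for Grid1 (-0.04 without the 1-month tumour), and 1 minus 2 months for Cbln1, Cbln2 and Nrxn2 (0.03, 0.06 and 0.07 with arrays centred on the median), of which Cbln1 and Nrxn2 also did so after quantile normalization (0.03 and 0.01). Cbln2 has no value with low genes left out. The causes were not tested. No paired analysis was possible because the labels give no replicate numbers and the control is 1 sample. Levels near the lower quartile limit what Cbln2 can show.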

Other observations

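Other cell types were followed through marker lists in tumour against cerebellum, where 9.30% of all genes fell and 6.70% rose. Of 5 measured oligodendrocyte markers 4 fell (median -2.61), among them the myelin genes Mag and Ermn (-3.28 and -3.35). Of 5 oligodendrocyte precursor markers 3 rose (median 1.65), with the proteoglycan gene Cspg4 at 1.65 ± 0.17. Of 6 microglia and macrophage markers 3 rose (median 1.08), with Lyz2 (lysozyme) at 5.21 ± 0.48 and the microglial gene P2ry12 at 0.07 ± 0.20 (adjusted p = 0.871). Of the 2 measured unipolar brush cell markers, Eomes fell by 1.43 ± 0.18, and Otx2 differed by 1.79 ± 0.70 (adjusted p = 0.168).

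None of 4 endothelial and 4 choroid plexus markers passed in limma, and 2 of the 8 (Flt1 and Kcnj13, named after their values were seen) had an unadjusted p under 0.05, against 29.7% of all genes. Between the SmoM2 tumours, the endothelial genes Pecam1 and Cldn5 differed by -1.33 and -1.16, lower at 1 month. The choroid plexus gene Ttr had log2 levels of 6.23 (cerebellum), 11.27 and 4.50 (SmoM2, 1 and 2 months) and 10.81 (PtchLacZ/+). Kcnj13 and Folr1 were also lowest of the tumours at 2 months, by far smaller differences, and Clic6 was highest there. At 1 minus 2 months Ttr differed by 6.78, Kcnj13 by 0.98, Folr1 by 0.39 and Clic6 by -0.61 (named after their values were seen).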
